A study of Homo sapiens with 6 samples.

Results

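The imprinted DLK1-DIO3 domain on human chromosome 14 carries a large cluster of miRNA hairpins, and its mature miRNAs were taken from a small RNA table of melanoma cells. Members were all rows whose miRNA number is on a fixed list of 45 numbers known from this cluster. The list found 56 of the 1596 mature miRNAs in the table. They carried 35 of the 45 numbers, and the other 10 (miR-154, miR-300, miR-337, miR-377, miR-433, miR-496, miR-544, miR-665, miR-770 and miR-1193) had no row. The list uses no measured value, although it was drawn up with earlier results of these data known.

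The cells were treated for 24 hours with RSL3 alone (RSL3 monotreatment group, 3 libraries) or with RSL3 together with IFN-γ (combined treatment group, 3 libraries), and no untreated library was analysed here. RSL3 inactivates the lipid peroxide-clearing enzyme GPX4 and so drives ferroptosis, an iron-dependent cell death, while IFN-γ is a cytokine of activated T cells. The sample labels name the cells as A2058 and the study's text as A375, which are both established human melanoma cell lines. Whether the 3 libraries of a group were separate cultures is stated in no source used here, and p-values therefore reflect only differences between libraries, possibly technical ones.

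In this domain the paternal chromosome expresses the protein-coding genes DLK1, RTL1 and DIO3. The maternal chromosome expresses a chain of non-coding RNAs (MEG3, MEG8, MEG9) from which the miRNA hairpins are cut. The cluster is known for high expression in embryo, placenta and brain and for low expression in many adult tissues and tumours. A hairpin can release a mature miRNA from each of its arms (5p and 3p), and bases 2 to 8 of the mature miRNA, the seed, largely decide which messenger RNAs it binds.

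The 56 members came from 42 hairpins, all on the plus strand between chr14:100869060-101066801 (GRCh38, GENCODE 29). The span of 197.742 kb falls into 2 groups separated by 110852 nt. On the MEG3 side lie 9 members, among them the products of MIR431, MIR127, MIR432 and MIR136, whose hairpins are antisense to an exon of RTL1 (chr14:100879753-100903722). The other 47 members belong to the group from miR-379 to miR-656. There MIR379 (chr14:101022066-101022132) and MIR411 (chr14:101023325-101023420) lie in introns of MEG8, MIR381 (chr14:101045920-101045994) in an intron of MIR381HG, and MIR409 (chr14:101065300-101065378) in an intron of MEG9, while MIR134 (chr14:101054687-101054759) overlaps no other annotated gene on its strand. By arm, 35 members were 3p, 19 were 5p, and 2 are named without an arm.

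The mature sequences of the 12 most abundant members, which carry most of the values given here, are listed from the highest level to the lowest, with the seed in capitals (RefSeq, GRCh38.p14, which matched 55 of the 56 members).
miR-381-3p: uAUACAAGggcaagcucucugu
miR-379-5p: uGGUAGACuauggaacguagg
miR-409-3p: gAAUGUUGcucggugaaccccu
miR-134-5p: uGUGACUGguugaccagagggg
miR-127-3p: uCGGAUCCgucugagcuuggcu
miR-323a-3p: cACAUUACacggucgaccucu
miR-411-5p: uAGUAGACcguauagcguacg
miR-654-3p: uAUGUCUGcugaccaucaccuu
miR-495-3p: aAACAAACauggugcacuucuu
miR-494-3p: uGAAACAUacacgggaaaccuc
miR-382-5p: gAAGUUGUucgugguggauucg
miR-370-3p: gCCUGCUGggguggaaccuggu
No 2 of these 12 share a seed. MiR-379-5p and miR-411-5p, from neighbouring hairpins, match in 6 of the 7 seed bases. Over the whole table miR-134-5p shares its seed with miR-3118, and the other 11 share theirs with no other miRNA that has a sequence.

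Some near copies within the cluster, and the members with the shared stretch GGUCCAC described after them, are shown next. Levels of near copies are uncertain, because the sources used here do not give the handling of reads that match more than 1 miRNA.
miR-300: uAUACAAGggcagacucucucu
miR-376a-3p: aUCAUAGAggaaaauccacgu
miR-376b-3p: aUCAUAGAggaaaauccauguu
miR-376c-3p: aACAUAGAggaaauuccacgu
miR-1185-1-3p: aUAUACAGggggagacucuuau
miR-1185-2-3p: aUAUACAGggggagacucucau
miR-379-3p: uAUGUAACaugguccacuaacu
miR-411-3p: uAUGUAACacgguccacuaacc
miR-380-3p: uAUGUAAUaugguccacaucuu
miR-758-3p: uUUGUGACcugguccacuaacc
miR-323b-3p: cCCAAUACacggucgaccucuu
MiR-300, one of the numbers without a row, has the seed of miR-381-3p and differs from it at 3 of 22 positions, so reads of both could have been counted as miR-381-3p, which was not tested. MiR-376a-3p and miR-376b-3p, known targets of adenosine-to-inosine editing, share a seed and differ at 1 of 21 positions compared. MiR-1185-1-3p and miR-1185-2-3p, with 19 and 3 reads, also share a seed and differ at 1 of 22. MiR-379-3p and miR-411-3p share a seed and differ at 2 of 22. MiR-376c-3p differs from miR-376a-3p, and miR-323b-3p from miR-323a-3p, at 2 of 21. MiR-487a-3p and miR-487b-3p differ at 3 of 22, and miR-495-3p and miR-543 at 4 of 22. The remaining shared seeds were those of miR-654-5p with miR-541-3p and of miR-539-3p with miR-485-3p. These 5 seeds were found in no other miRNA of the table.

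Outside the seed, some members also share short stretches, searched on the mature strand only and chosen after the sequences were read. GGUCCAC stands in 4 of the 55 members with a sequence (7.27%), namely miR-379-3p, miR-380-3p, miR-411-3p and miR-758-3p. It was in none of the other miRNAs, so that 4 of all 1425 sequences held it (0.281%). ACCUCU, near the 3′ end, stands in 5 members (9.09%), miR-323a-3p, miR-323b-3p, miR-329-3p, miR-655-3p and miR-656-3p, and in 12 of the 1425 (0.842%). Members had a median GC content of 45.5%, against 52% over all miRNAs with a sequence.

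The cluster was scarcely expressed in these cells. Its 56 members took 5390 of 31454593 reads, or 0.0171%. Library totals ran from 4383940 to 6513382 reads, at which 3 reads, the limit that a count of 0 allows, correspond to 0.484 to 0.725 CPM after TMM scaling (CPM scales counts to a fixed library size, here with library sizes set by the trimmed mean of M-values). Intervals and limits of this kind cover counting error only. The median member had 0.490 CPM, against 1.58 CPM over the table. Only 4 members reached 10 CPM, 19 reached 1 CPM, and 37 stayed below it.

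The melanocyte miRNA miR-211-5p, whose hairpin lies within TRPM1, was present at 270 to 387 CPM in the 6 libraries, and miR-146a-5p, abundant in melanoma, at 85697 to 147763 CPM. All 7 melanocyte and melanoma markers had a row, with miR-506-3p and miR-508-3p averaging below 1 CPM, but only 4 were detected in all 6 libraries. Means in the RSL3 and the combined group were 286 and 170 CPM for miR-204-5p and 63.8 and 24.3 CPM for miR-514a-3p. For miR-509-3p they were 1.94 and 0.281 CPM. Means of miR-506-3p and miR-508-3p were also lower in the combined group, while those of miR-211-5p and miR-146a-5p were higher. Summed levels in the RSL3 and the combined group were 656 to 1549 and 398 to 560 CPM for 5 fibroblast markers, 116 to 178 and 96.9 to 365 CPM for 6 blood markers, and 87.4 to 130 and 81.4 to 101.7 CPM for 4 epithelial markers. For 3 neural markers, chiefly miR-9-5p, they were 4570 to 11893 and 2670 to 3543 CPM, and for 4 liver and muscle markers 251 to 1362 and 283 to 452 CPM. The second replicate of the RSL3 group stood apart in detection, with 28 members at 1 read or more against 34 to 45 in the others. Over all miRNAs its share detected was also the lowest, 73.9% against 76.3% to 83.4%. The second replicate of the combined group had the largest TMM factor, 1.33 against 0.861 to 1.15, and the smallest share of miR-21-5p, the most abundant miRNA, 22.1% against 28.9% to 36.2%.

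**Figure D1:**
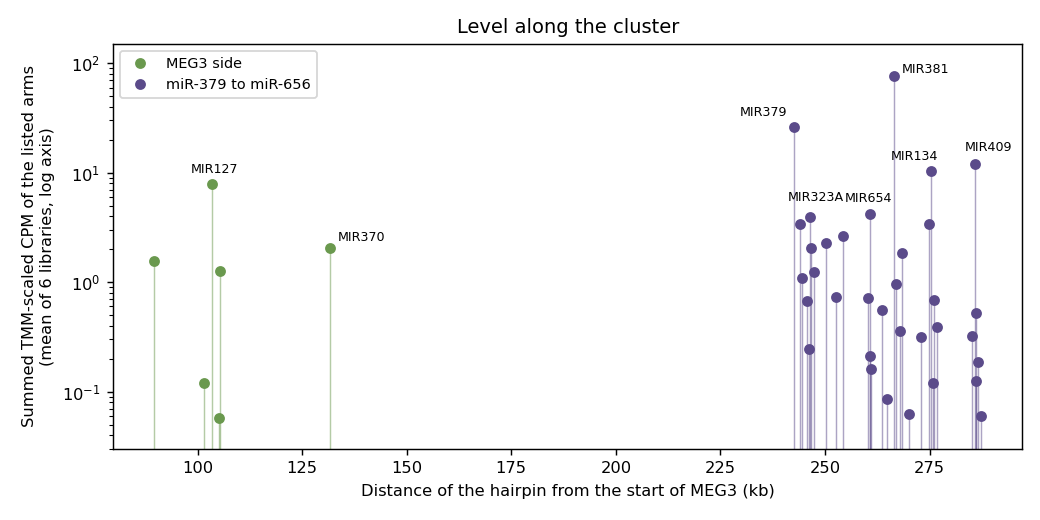
Summed level of the listed arms of each hairpin (TMM-scaled CPM, mean of 6 libraries, log axis) against the distance of the hairpin from the start of MEG3 in kb. MIR381 stands highest at 75.9 CPM, MIR379 follows at 26.0 CPM, and neighbours of both lie far below them.

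Along the cluster the level could differ widely between hairpins that lie close together. Hairpins on the MEG3 side gave 403 reads (7.48% of the cluster) and those of the miR-379 to miR-656 group 4987 (92.5%), as the plot of level by position shows. MIR381 had 2408 reads, while MIR487B, 460 nt downstream, had 30, a 78.7-fold difference in summed CPM. The reads of MIR381 could include those of miR-300. Whether the libraries captured different mature sequences equally was not tested, so differences between hairpins or members are differences in reads. MIR409 had 380 reads and MIR412, 68 nt downstream, 4 reads. MIR127 had 252 reads, and MIR431 and MIR432, the nearest hairpins with a row on either side of it, had 4 and 2. Neighbours were taken among hairpins with a row, so any hairpin without one was passed over. Of the 22 neighbouring pairs less than 1000 nt apart (leaving out MIR329-1 and MIR329-2, which share a row), 8 differed by more than 10-fold and 4 by less than 2-fold. In all of the 8 except MIR381 with MIR487B, the lower hairpin had only 2 to 10 reads over the 6 libraries. MIR376A1 and MIR376A2 also share a row, of 7 reads, whose level stood for both. That level entered the pairs with MIR376C (3.41-fold), MIR654 (19.6-fold) and MIR376B (1.31-fold). Level and distance from MEG3 gave a Spearman rho of -0.27 over 40 positions and -0.41 over the 34 of the miR-379 to miR-656 group. The points share their libraries and, within MEG8, MIR381HG or MEG9, a host transcript.

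MiR-381-3p dominated the cluster with 44.7% of its reads, and the first 5 members together held 76.7%. It ranked 230th of 1596 in the table. Its level exceeded that of miR-379-5p in 6 of 6 libraries, 2.93-fold on average, with ranges that did not overlap. MiR-379-5p, the product of the hairpin that opens the second group, exceeded miR-409-3p 2.34-fold in 6 of 6, again without overlap. MiR-409-3p and miR-134-5p, and miR-134-5p and miR-127-3p, overlapped in their ranges. MiR-127-3p exceeded miR-323a-3p 1.93-fold in 6 of 6 without overlap, and from there down to miR-370-3p every neighbour in the order overlapped with the next.

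**Figure D2:**
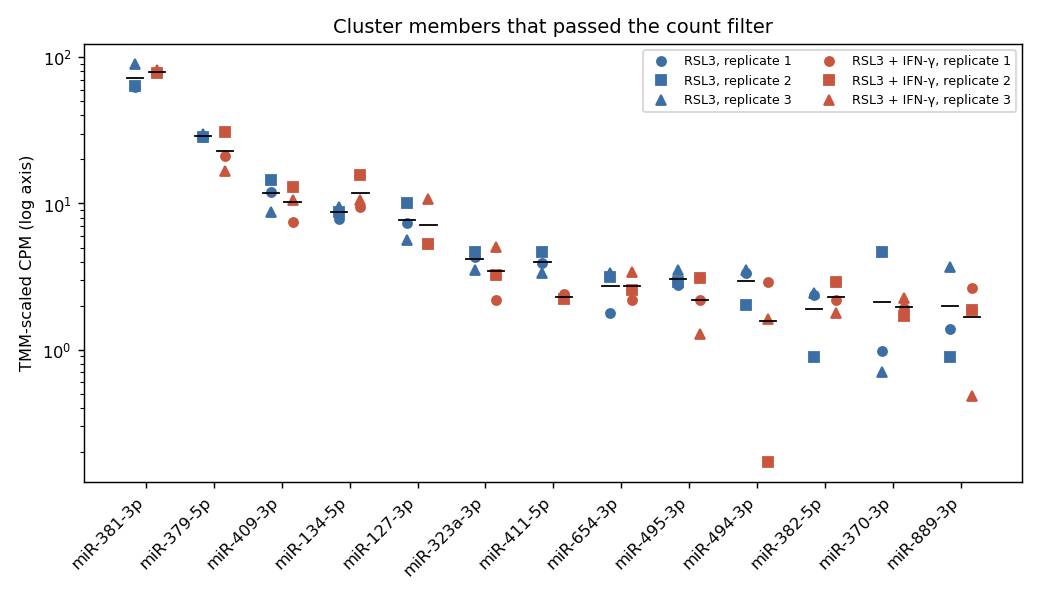
TMM-scaled CPM (log axis) of the 13 members that passed the count filter, in each library, with circles, squares and triangles for replicates 1, 2 and 3 and short bars for group means. The groups overlap for every member except miR-411-5p, whose 3 combined treatment libraries lie between 2.22 and 2.42 CPM and below the 3 RSL3 libraries.

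The treatments were compared with edgeR's quasi-likelihood test on the raw counts, in one fit over all miRNAs that passed its filter on low counts, with two-sided p-values adjusted by the Benjamini-Hochberg method over all of them. The filter kept 13 of the 56 members (23.2%) and 758 of all 1596 miRNAs (47.5%). The 43 members left out had 2 to 62 reads each and 11.4% of the cluster's reads, so what follows does not describe them. None of the 13 was called at an adjusted p under 0.05, and none had an unadjusted p under 0.05. Over all tested miRNAs the share called was 4.75% (2.51% rose and 2.24% fell), the background against which the 0 of 13 stands. With library totals in place of TMM, 60 rose and 11 fell over all miRNAs, and without the first RSL3 library none of 810 was called (124 at an unadjusted p under 0.05 in edgeR). With the replicate number as a block the share over all was 10.8%, and again 0 of 13 members were called or had an unadjusted p under 0.05. DESeq2 and limma also called 0 of 13, each with 0 at an unadjusted p under 0.05.

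MiR-381-3p was at 62.7, 63.3 and 90.1 CPM in the RSL3 group and at 79.0, 77.9 and 82.1 CPM in the combined group. The third RSL3 library was above, and the other 2 below, all combined treatment libraries, so the groups overlapped. Means were 72.0 ± 15.7 and 79.7 ± 2.21 CPM (SD, n = 3 each). The log2 fold change was 0.14 (95% interval -0.38 to 0.67, adjusted p = 0.728 in edgeR).

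MiR-379-5p was at 28.4, 28.4 and 29.9 CPM with RSL3 and at 21.0, 30.7 and 16.8 CPM with the combination. The RSL3 libraries lay close together, and the combined ones spread to both sides of them. Means were 28.9 ± 0.880 and 22.8 ± 7.15 CPM (SD, n = 3 each), with a log2 fold change of -0.34 (interval -0.97 to 0.29, adjusted p = 0.487 in edgeR).

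MiR-409-3p was at 12, 14.5 and 8.75 CPM with RSL3 and at 7.49, 13.0 and 10.5 CPM with the combination, and the groups overlapped. Its log2 fold change was -0.18 (interval -0.92 to 0.57, adjusted p = 0.770 in edgeR). MiR-134-5p, which in neurons restrains the growth of dendritic spines by repressing LIMK1, was at 7.89, 8.72 and 9.45 CPM against 9.42, 15.7 and 10.5 CPM. The first combined treatment library lay just under the highest RSL3 library and the other 2 above all of them. Its log2 fold change was 0.45 (interval -0.26 to 1.16, adjusted p = 0.396 in edgeR). This was the highest of the 13, but with the GC trend removed it was 0.19, below miR-889-3p, miR-381-3p and miR-382-5p. With the block as well it was 0.17, below the same members. Without the second combined library it was also 0.19, though still the highest of the 13. Without the first RSL3 library it was 0.40, below miR-382-5p at 0.42. Without the second RSL3 library miR-370-3p, at 1.19, was higher.

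MiR-127-3p is fully complementary to the RTL1 transcript from the other parental chromosome, whose cleavage it directs. It was at 7.30, 10.1 and 5.60 CPM with RSL3 and at 5.32, 5.29 and 10.8 CPM with the combination. The highest and the lowest of the 6 values were both in the combined group. Its log2 fold change was -0.08 (interval -0.98 to 0.82, adjusted p = 0.910 in edgeR). MiR-370-3p, the other tested member on the MEG3 side, was at 0.986, 4.70 and 0.700 CPM against 1.93, 1.71 and 2.26 CPM. A single library, the second of the RSL3 group, held 21 of its 30 RSL3 reads. The log2 fold change was -0.07 with that library and 1.19 without it, neither past the threshold.

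MiR-411-5p, from the hairpin after MIR379 and close to miR-379-5p in its seed, was at 3.95, 4.70 and 3.32 CPM in the RSL3 group. In the combined group it was at 2.42, 2.22 and 2.26 CPM. All 3 combined treatment libraries were below all 3 RSL3 libraries, and means were 3.99 ± 0.686 and 2.30 ± 0.104 CPM (SD, n = 3 each). The log2 fold change of -0.79 (interval -1.75 to 0.17) had the lowest p-value of the 13, 0.0985 unadjusted and 0.274 adjusted in edgeR, and so did not pass. It rests on 97 reads, 60 with RSL3 and 37 with the combination. It was the only one of the 13 (7.69%) without overlap between groups, against 14.8% of all tested miRNAs that were lower without overlap and 29.8% in either direction. MiR-379-5p, which matches it in 6 of 7 seed bases without sharing its seed, had overlapping groups.

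The remaining tested members had 57 to 122 reads. MiR-494-3p had the lowest log2 fold change, -0.98 (interval -2.57 to 0.60), with 3.35, 2.01 and 3.50 CPM against 2.90, 0.171 and 1.61 CPM. The second combined treatment library had 1 read of it, and the first lay within the RSL3 range. Without that second library the log2 fold change was -0.43, above those of miR-495-3p, miR-411-5p, miR-379-5p and miR-889-3p. Without the first combined library it was -1.72. MiR-411-5p was lower than miR-494-3p without the third RSL3 library, and so were miR-379-5p and miR-411-5p with limma at a pseudocount of 5. MiR-323a-3p, miR-495-3p, miR-654-3p and miR-382-5p had log2 fold changes of -0.24, -0.49, -0.01 and 0.24, and each overlapped between groups. MiR-889-3p, tested but outside the 12 most abundant members and therefore named after its values were seen, had -0.32. Just outside the filter, miR-758-3p had 62 reads and a mean of 2.04 CPM, and just inside it miR-889-3p had 57 reads and 1.83 CPM.

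**Figure D3:**
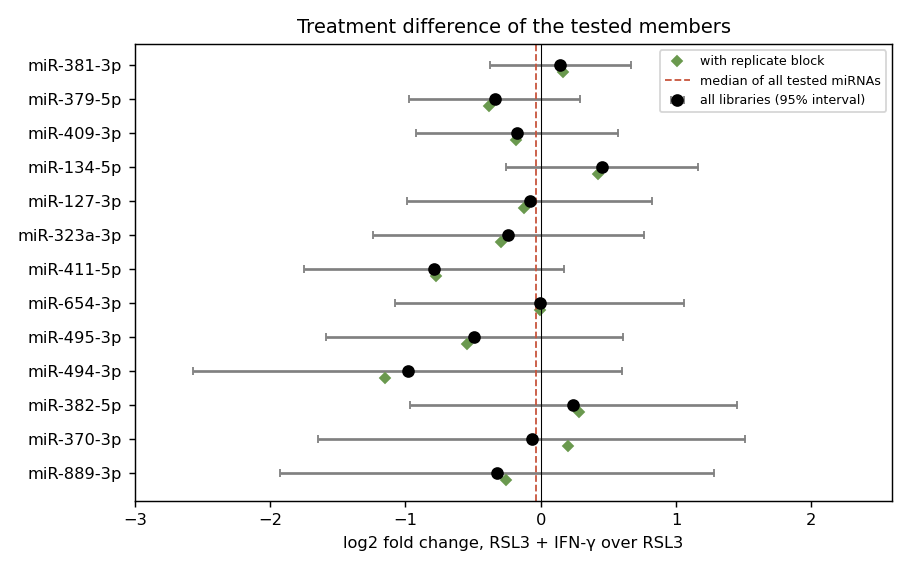
Log2 fold change of each tested member, combined treatment over RSL3. Black marks the edgeR value with a 95% interval derived from its F statistic, and green the value with the replicate number as a block. Every interval includes 0, 10 of 13 point estimates are negative, and the dashed line marks the median of all tested miRNAs at -0.04.

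Of the 13 point estimates 3 were positive and 10 negative. Their median was -0.18, beside -0.04 over all tested miRNAs. With scaling by library totals alone both moved up, to 0.22 and 0.33, and 10 of the 13 became positive, so the sign of single members depends on scaling while the difference of the medians was -0.14 and -0.11. The intervals of 4 members (miR-381-3p, miR-379-5p, miR-409-3p and miR-127-3p) stayed within a log2 fold change of 1 in both directions, and those of the other 9 reached past it, so for these a 2-fold difference in at least 1 direction lies within the interval. Across all tested miRNAs with a sequence, the log2 fold change was higher at higher GC content of the mature sequence (Spearman rho 0.47, n = 679), and tested members had a median GC content of 47.6% against 50% of all tested. With the GC trend removed from each library the medians were -0.26 for the members and 0.01 for all, and 0 of 13 were called. Without the second RSL3 library, which had the fewest members detected, 15 members passed the filter, with medians of -0.017 for the members and -0.023 for all, and 0 were called.

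**Figure D4:**
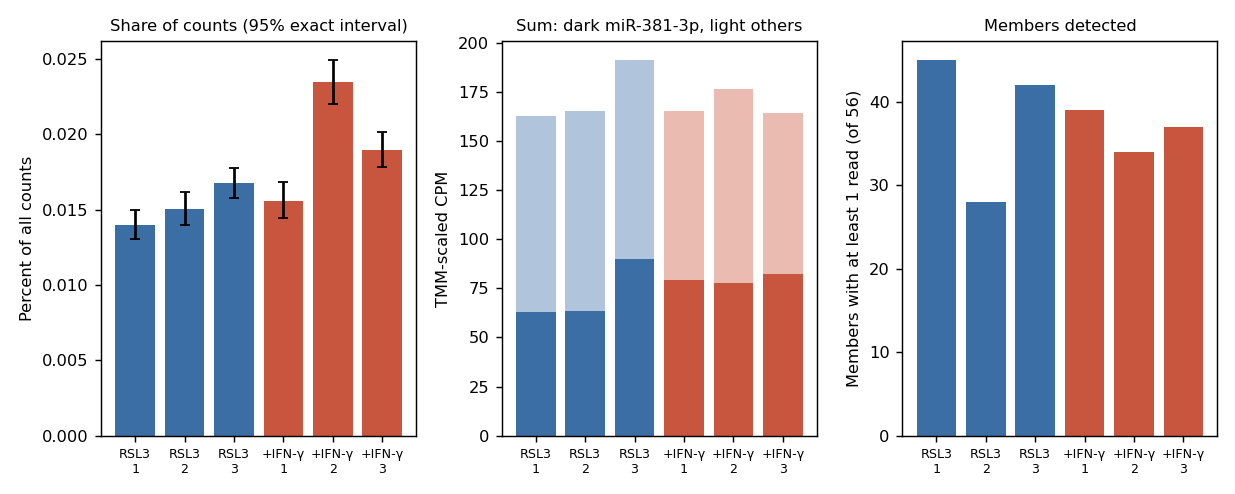
Left, share of all counts taken by the 56 members in each library in percent, with exact 95% intervals. Middle, their summed TMM-scaled CPM, with miR-381-3p dark and the others light. Right, number of members with at least 1 read. The share is highest in the second combined treatment library at 0.0235%, the scaled sums lie between 163 and 191 CPM, and the second RSL3 library has the fewest members detected, 28.

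As a whole the cluster took 0.0140%, 0.0151% and 0.0168% of the counts with RSL3 and 0.0156%, 0.0235% and 0.0190% with the combination. The exact 95% interval of the second combined treatment library, 0.0220% to 0.0249%, overlapped with that of no other library. On the TMM scale the sums were 163, 165 and 191 CPM against 165, 176 and 164 CPM, with means of 173 ± 15.8 and 169 ± 6.68 CPM (SD, n = 3 each). The group means of the share were 0.0153% ± 0.00140 and 0.0193% ± 0.00394 (SD, n = 3 each), so that the scaling sets which group is higher. MiR-381-3p made up 38.6%, 38.3% and 47.2% of the cluster's reads with RSL3 and 47.8%, 44.1% and 49.95% with the combination. Without it the TMM-scaled sums were 99.8, 101.7 and 101 CPM against 86.3, 98.5 and 82.3 CPM, all 3 combined libraries being lower. As a share of counts the same sums turned round, with means of 0.00891% ± 0.000351 and 0.0102% ± 0.00256 (SD, n = 3 each). These sums are descriptions, and no test was made of them.

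Most members were seen at the edge of detection. With at least 1 read, 20 were found in all 6 libraries, 9 in 5, 4 in 4, 4 in 3, 13 in 2 and 6 in 1. The share found in all 6 was 35.7%, against 56.6% (904 of 1596) over all miRNAs. Members at 0 in every RSL3 library numbered 6, and those at 0 in every combined treatment library also 6. Among the former, miR-376b-3p, miR-668-3p, miR-323a-5p, miR-431-5p, miR-432-5p and miR-134-3p had 2 to 4 reads in all. Among the latter, miR-1197 had 3 and 5 reads in 2 RSL3 libraries, and miR-376a-3p 2 and 5 in the same 2. No fold change is given for these, since both groups lie near or under the limit that a count of 0 allows. Under these levels 13 members shared all 6 counts with another miRNA of the table, none with more than 7 reads.

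**Figure D5:**
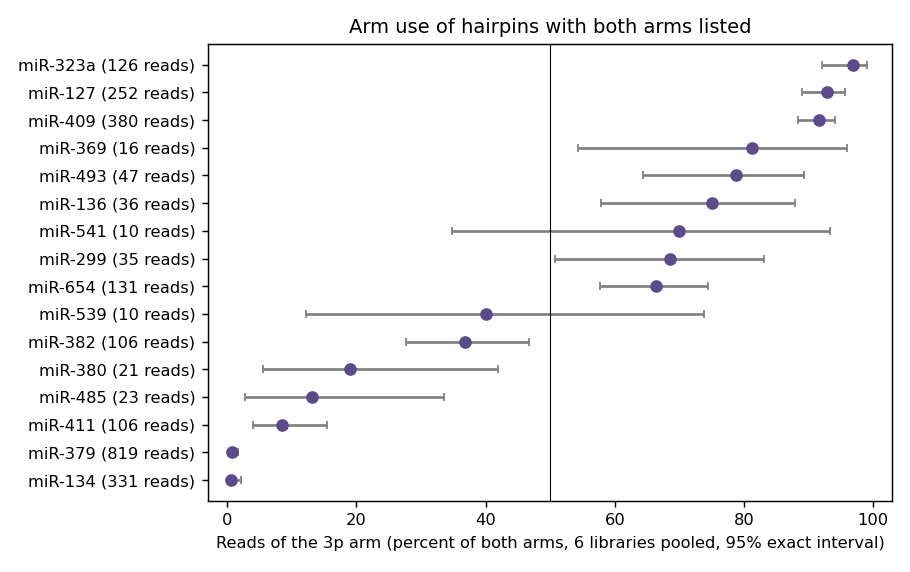
Reads of the 3p arm as a percent of both arms, with the 6 libraries pooled and exact 95% intervals, for the 16 hairpins with both arms listed (total reads in parentheses). MiR-323a, miR-127 and miR-409 lie above 90%, while miR-379 and miR-134 lie below 1%.

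Both arms were listed for 16 hairpins, and which arm led differed between them. The 3p arm led in 8 and the 5p arm in 6, with an interval that excluded 50%, and the interval held 50% in 2. These intervals pool the 6 libraries, and whether both arms were captured equally was not tested. The same arm led in every library for 7 hairpins, 4 with the 3p and 3 with the 5p arm, while libraries fell on both sides for 4, among them miR-299 (3p higher in 3, 5p in 2), miR-136 (4 and 2) and miR-382 (2 and 4). MiR-323a gave 96.8% of its reads from the 3p arm, miR-127 92.9% (234 against 18 reads) and miR-409 91.6% (348 against 32, interval 88.3% to 94.2%). At the other end, the 3p arm gave 0.604% of the reads of miR-134 and 0.733% of those of miR-379 (6 against 813, interval 0.269% to 1.59%), and 8.49% of those of miR-411. MiR-654 and miR-382 used both arms, with 66.4% and 36.8% from the 3p arm. In the plot of arm use these 2 lie between the extremes with intervals that exclude 50%.

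The balance of arms could be tested in few hairpins. In the arm test (limma on the log2 ratio of 3p to 5p reads within a library) no hairpin of the cluster had the mean of 10 reads of each arm that was required, and 0 of the 181 hairpins tested were called, with 35 at an unadjusted p under 0.05 (0% called). With a mean of 5 reads 3 of its hairpins entered among 228. MiR-409 gave 176 and 26 reads of the 3p and 5p arm with RSL3, or 87.1% from the 3p arm, and 172 and 6, or 96.6%, with the combination. The difference of its log2 ratio was 1.90 (standard error 1.19, adjusted p = 0.492 in limma). MiR-654 went from 59.2% to 75% from the 3p arm, with a difference of 1.35 (standard error 0.725, adjusted p = 0.463 in limma). MiR-382 was at 37.5% and 36.2%, with a difference of -0.21 (adjusted p = 0.905 in limma). None passed the threshold.

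The low level was not shared by the other large imprinted miRNA cluster, the primate-specific one on chromosome 19 known from placenta, here listed with miR-371 to miR-373. It had 70 members in the table, of which 51 (72.9%) were tested, with a median level of 14.3 CPM and 0.245% of all reads. Its most abundant members, miR-516b-5p, miR-520a-3p and miR-512-3p, had 404, 216 and 179 CPM. None of these 3 was called, and 1 of the 51 fell. The reads of the chromosome 14 cluster were 6.99% of those of the chromosome 19 cluster. Of 8 arms of other imprinted hairpins 4 passed the filter and 0 were called. Among them miR-296-3p was at 23.6 ± 3.52 and 48.4 ± 9.08 CPM (SD, n = 3 each), with a log2 fold change of 1.04 (adjusted p = 0.0507 in edgeR), just short of the threshold.

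On chromosome 14, outside the span of the members' hairpins but within 2 Mb of it, lie hairpins with 7 mature miRNAs in the table. Of these 4 were tested and 1 rose. MiR-345-5p had 769 ± 129 CPM in the RSL3 group and rose to 1701 ± 237 CPM in the combined group (SD, n = 3 each). Its log2 fold change was 1.15 with a standard error of 0.234 (adjusted p = 0.0315 in edgeR). This call was lost with the GC trend removed (log2 fold change 0.80, adjusted p = 0.0568 in edgeR, and 0.0714 with the block as well). It was also lost without the first or the last RSL3 library or the second or the last combined one (adjusted p = 0.0770 to 0.174 in edgeR), with log2 fold changes of 1.04 to 1.099. MiR-342-3p was at 72.3 ± 10.0 and 48.4 ± 23.2 CPM (SD, n = 3 each) and miR-151b at 7.78 ± 3.12 and 21.9 ± 12.9 CPM (SD, n = 3 each), and neither passed (adjusted p = 0.280 and 0.0750 in edgeR). Near copies were searched for cluster members only. Whether reads of miRNAs from other chromosomes entered the levels of these neighbours, miR-151b among them, was not tested. The mean level of miR-345-5p over the 6 libraries was 1235 CPM, beside 75.9 CPM for miR-381-3p, the highest member of the cluster.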

How the data were processed

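Small RNA of 6 libraries of melanoma cells, 3 with RSL3 and 3 with RSL3 plus IFN-γ, was analysed from 1 table. In it the authors deposited read counts per mature miRNA as counted, and a normalized signal which the authors made by scaling each library to its own total. The counts were used and the signal was not. The table's columns of log2 fold changes, fold values and p-values from the authors' own comparison were not used, and 0 columns of values per sample were left without a sample. Named in the submitters' processing notes are the build GRCh38 and the tools Bowtie 1.1.1, bcl2fastq and edgeR. The miRBase release and the handling of reads with more than 1 matching miRNA were not given in the sources used here. Every listed miRNA had at least 2 reads in all.

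Samples were grouped by the treatment in their labels. The count test was edgeR's quasi-likelihood test (edgeR 4.0.16 under R 4.3.3, two-sided, TMM factors, filter minimum count 10 and minimum total 15, Benjamini-Hochberg over all tested miRNAs, threshold 0.05). Arm ratios, with 0.5 reads added to each arm, were tested with limma 3.58.1 where each arm averaged 10 reads or more. DESeq2 1.42.0, limma on log2(CPM + 5) and log2(CPM + 1), other scalings and filters, GC correction, a replicate block and leaving out each library were alternatives. Shares carry exact (Clopper-Pearson) 95% intervals. Standard errors of edgeR log2 fold changes were approximated as the absolute log2 fold change over the square root of the F statistic. Their 95% intervals are that error times a t quantile, and edgeR itself did not give them. Scripts were tested on simulated data with known changes.

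Hairpins and hosts came from GENCODE 29 and mature sequences from RefSeq. Named are called members, the 12 members with the highest mean CPM, the 3 highest and 3 lowest log2 fold changes of tested members with a mean of at least 10 CPM, the other arm of each of these hairpins, and up to 3 abundant tested miRNAs of each comparison list. The members and lists were chosen with earlier results of these data known. Groups share replicate numbers whose meaning no source gives. Deviations from the group means, over all tested miRNAs, correlated by 0.249, 0.233 and 0.224 in same-numbered libraries, each above 0.1, so the block is given as an alternative, while the reported fit has none. Over the 13 tested members the same correlations were 0.07, -0.06 and -0.62. No library was taken for a copy of another, chi-square per degree of freedom being 151 or more for each pair.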

Additional observations from a re-analysis of the deposited data

How the results depend on the processing

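No member was called in any setting of scaling, test, filter, block or GC correction, or without any 1 library (13 to 16 members tested). With a mean of at least 10 CPM required, only 4 members were tested, and with no filter 56. Library totals gave 1 member at an unadjusted p under 0.05 and each other setting 0. Calls over all miRNAs, 36 in the report, were 71 with library totals (60 rose, 11 fell), 95 with DESeq2, 106 with no filter, 82 with the replicate block (39 rose, 43 fell), 23 with the GC trend removed and 23 with both the block and the GC trend removed, 17 of them shared, and 0 to 95 without 1 library. The 0 came without the first RSL3 library (124 at an unadjusted p under 0.05), and 55, 22, 95, 6 and 7 without the others in order. The block changed no call of a member. The log2 ratio of the cluster's summed level was -0.04, against 0.34 with library totals, -0.13 with upper-quartile factors, 0.20 as a share of counts without miR-21-5p and -0.18 without miR-381-3p, and -0.08 to 0.04 without 1 library. For arm ratios 1 hairpin, no member, was called at a mean of 5 reads.

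Some members changed sign between settings, many of them at small values. Larger turns were those of miR-370-3p, from -0.07 to 1.19 without the second RSL3 library, and miR-889-3p, from -0.32 to 0.47 without the third. Library totals raised tested miRNAs in general, to a median log2 fold change of 0.33 in place of -0.04. Apart from the dependence on scaling given above, the cause of these turns was not tested. With library totals miR-379-5p was at 0.062, miR-409-3p 0.22, miR-127-3p 0.28, miR-323a-3p 0.14, miR-654-3p 0.37, miR-370-3p 0.27 and miR-889-3p 0.032. MiR-654-3p was at 0.024 with median-ratio size factors, at 0.023 with DESeq2, at 0.0056 with TMM without the 10 most abundant miRNAs, at 0.00055 with limma at a pseudocount of 1 and at 0.0095 with no filter. MiR-370-3p was at 0.0098 and 0.14 with limma at pseudocounts of 5 and 1, and at 0.20 with the replicate block. With the GC trend removed miR-654-3p was at 0.13, miR-495-3p 0.045 and miR-889-3p 0.36, and with the block and the GC trend removed miR-654-3p was at 0.13 and miR-889-3p 0.36. Without 1 library the ranges were -0.53 to 0.14 for miR-127-3p, -0.24 to 0.13 for miR-654-3p, -0.087 to 0.44 for miR-382-5p, -0.53 to 1.19 for miR-370-3p and -0.77 to 0.47 for miR-889-3p. MiR-411-5p (-0.93 to -0.30, adjusted p 0.238 to 0.580), miR-494-3p (-1.72 to -0.29), miR-381-3p (0.047 to 0.52) and miR-134-5p (0.17 to 0.86) kept their sign in each setting run.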

Other observations

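Members seen in exactly 2 libraries are described here by pair of libraries, with no test. Of the 13 members seen in exactly 2 libraries, 5 were in replicates 1 and 3 of the RSL3 group and 4 in the first library of each group. The latter were miR-539-5p, miR-539-3p, miR-410-3p and miR-541-5p, with 1 to 4 reads in a library. None of the 13 was in the second RSL3 library. Of all listed miRNAs, 163 were seen in exactly 2 libraries, 12.9% of them in replicates 1 and 3 of the RSL3 group and 10.4% in the first library of each group. The pairs of the second RSL3 library with RSL3 replicates 1 and 3 held 5 and 13 of the 163. Its pairs with combined replicates 1, 2 and 3 held 3, 10 and 2. Each miRNA is in a single pair, so these counts add up (1.23% to 7.98% per pair).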
